A study of Homo sapiens with 3 samples.

Results

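ATF4 amino acid and integrated stress response genes were followed in UM-UC-3, an established cell line from a human bladder cancer, by RNA sequencing of polyA+ RNA. The list holds 40 genes, chosen by symbol from the known targets and partners of the transcription factor ATF4, and all 40 were found among the 50867 genes of the deposited table. They are protein-coding genes spread over 19 chromosomes, and all 40 were among the 15132 genes tested (mean of at least 1 CPM, the count scaled to library size, over the libraries). NUPR1 passed that filter through shRNA 2, since it had 0.168 CPM with shRNA 1, 5.29 CPM with shRNA 2 and 0.727 CPM in the control. The group shBLACAT2 (n = 2) consists of puromycin-selected stable lines, infected with lentivirus for 1 of 2 hairpins that target BLACAT2, a long non-coding RNA, with 1 library per hairpin (called shRNA 1 and shRNA 2). The group shControl (n = 1) is the same line infected with a scramble hairpin and selected in the same way. Each of these lines is represented by 1 library, so the p-values below measure the spread between these libraries only, and folds of 1 library over another have no replicate check.

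In the integrated stress response, kinases that sense amino acid shortage, unfolded protein in the endoplasmic reticulum, double-stranded RNA or haem shortage phosphorylate the translation factor eIF2. Translation in general slows while the ATF4 message is translated more, and ATF4 pairs with C/EBP proteins to switch on genes for amino acid synthesis, amino acid uptake and redox balance, together with feedback regulators. ATF4 is controlled largely at the level of translation, and protein was not measured here. In cancers this programme is known for supplying serine, glycine, asparagine and cysteine to growing cells.

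The libraries held 17670199 counts with shRNA 1, 16216947 with shRNA 2 and 16424422 in the control. Mitochondrial transcripts took 4.58%, 2.51% and 3.88% of them in the same order, and the fibronectin gene FN1 took 1.72%, 1.67% and 5.53%. The part of these differences in the results below was not tested. The 13 urothelial and epithelial markers summed to 55642, 37332 and 42316 counts, with 20236, 13229 and 19944 counts of KRT7, while the urothelial genes UPK1A, UPK3A and KRT20 had at most 1 count in any library. Of the 10 such markers that were tested, 4 exceeded the control by at least 2-fold with shRNA 1, 3 with shRNA 2 and 3 with both (UPK1B, a urothelial plaque protein, at 6.38-fold and 2.65-fold, UPK2 at 2.61-fold and 2.61-fold, and the adhesion gene CDH1 at 2.34-fold and 2.14-fold). Of all genes tested, 7.92%, 13.0% and 5.29% did so in the same order. The markers were mixed, since 2 of the 10 were below the control with shRNA 1 and 4 with shRNA 2. With shRNA 2 these were KRT7 (0.583-fold), KRT8 (0.703-fold), KRT18 (0.696-fold) and FOXA1 (0.738-fold). With shRNA 1 they were KRT7 (0.857-fold) and KRT18 (0.838-fold). Leukocyte markers (5 genes) summed to 18, 32 and 28 counts, endothelial markers (4 genes) to 60, 98 and 26, and fibroblast markers (4 genes) to 2, 3 and 40. The target RNA, listed as LINC00958 (ENSG00000251381, hg38 chromosome 11, 12961842 to 12989548, minus strand), had 816 counts with shRNA 1, 1062 with shRNA 2 and 938 in the control. Scaled for library size, this was 0.735 of the control level with shRNA 1 (95% exact binomial counting interval 0.668 to 0.808) and 0.996 with shRNA 2 (0.911 to 1.09), and edgeR's quasi-likelihood test gave an adjusted p of 0.913. The depletion that the labels name was thus not detected in the library labelled shRNA 2, and "with shRNA 1" and "with shRNA 2" below mean the libraries so labelled, not a measured loss of the RNA.

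ATF4 and C/EBP proteins bind together to a composite element whose core is TGATGNAA, most often TGATGCAA. Promoter windows of 300 bases (250 before and 50 after a gene start, RefSeq, GRCh38.p14) were available for 32 of the 40 genes. The core TGATGNAA stood on either strand in 9 of these 32 genes (28.1%, 95% exact binomial interval 13.75 to 46.75), against 1217 of all 27305 RefSeq genes (4.46%) and 277 of the 10366 tested genes with a window (2.67%). Genes can have several windows, and the members have more per gene (51 for 32 genes) than all genes do (35116 for 27305). Counted by window, a choice made after seeing the data, the element stood in 9 of 51 (17.6%), against 1270 of 35116 (3.62%). Its stricter form TGATGCAA, which is contained in the first, stood in 5 of 32 (15.6%), against 295 of 27305 (1.08%) and 70 of 10366 (0.675%). The 40 genes were chosen from known targets and partners of ATF4, so their share of the element is not independent of that choice. The windows of the matching genes with the largest mean fold over both hairpins are shown because these genes carry much of what follows. Each is written 5′ to 3′ on the gene's strand with the element in capitals (in CHAC1 the capitals are its reverse complement).
CHAC1, chr15:40953221-40953520, plus strand: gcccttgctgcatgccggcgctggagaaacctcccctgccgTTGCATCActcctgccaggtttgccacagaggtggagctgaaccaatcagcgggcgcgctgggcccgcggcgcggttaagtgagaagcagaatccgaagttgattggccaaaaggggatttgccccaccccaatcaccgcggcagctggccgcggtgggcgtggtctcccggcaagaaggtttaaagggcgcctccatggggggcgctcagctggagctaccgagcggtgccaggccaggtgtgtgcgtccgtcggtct
ASNS, chr7:97872359-97872658, minus strand: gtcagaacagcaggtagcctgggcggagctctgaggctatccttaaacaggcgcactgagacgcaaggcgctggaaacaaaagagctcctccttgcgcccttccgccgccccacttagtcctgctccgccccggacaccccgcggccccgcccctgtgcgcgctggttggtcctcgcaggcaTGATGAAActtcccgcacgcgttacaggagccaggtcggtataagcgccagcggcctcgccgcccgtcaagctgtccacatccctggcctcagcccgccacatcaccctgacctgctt
SLC1A5, chr19:46784765-46785064, minus strand: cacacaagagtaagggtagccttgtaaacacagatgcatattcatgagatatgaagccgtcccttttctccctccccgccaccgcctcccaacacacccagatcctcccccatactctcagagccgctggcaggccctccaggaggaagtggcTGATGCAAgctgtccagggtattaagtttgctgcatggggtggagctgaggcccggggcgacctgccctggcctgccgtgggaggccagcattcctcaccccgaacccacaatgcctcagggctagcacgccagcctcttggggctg
JDP2, chr14:75427772-75428071, plus strand: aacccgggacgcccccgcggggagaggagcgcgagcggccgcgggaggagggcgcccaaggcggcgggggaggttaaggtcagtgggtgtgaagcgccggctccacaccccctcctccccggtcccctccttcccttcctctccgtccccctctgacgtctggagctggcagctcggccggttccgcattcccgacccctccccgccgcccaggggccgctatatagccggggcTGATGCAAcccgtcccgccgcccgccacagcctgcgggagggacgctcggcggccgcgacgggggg
The element began 209 bases before the start in CHAC1, 68 in ASNS, 97 in SLC1A5 and 16 in JDP2. The SLC1A5 window is 1 of 3 for that gene and belongs to a start inside the gene. The CHAC1 and JDP2 windows also lie wholly within the listed bounds of their genes. The other matches lay in CEBPG, SLC1A4, SLC3A2, SLC7A1 and ATF3, and the windows of CEBPG, SLC1A4 and SLC3A2 likewise lie within the gene bounds. The presence of these letters is a description and not a measured binding site.

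**Figure D1:**
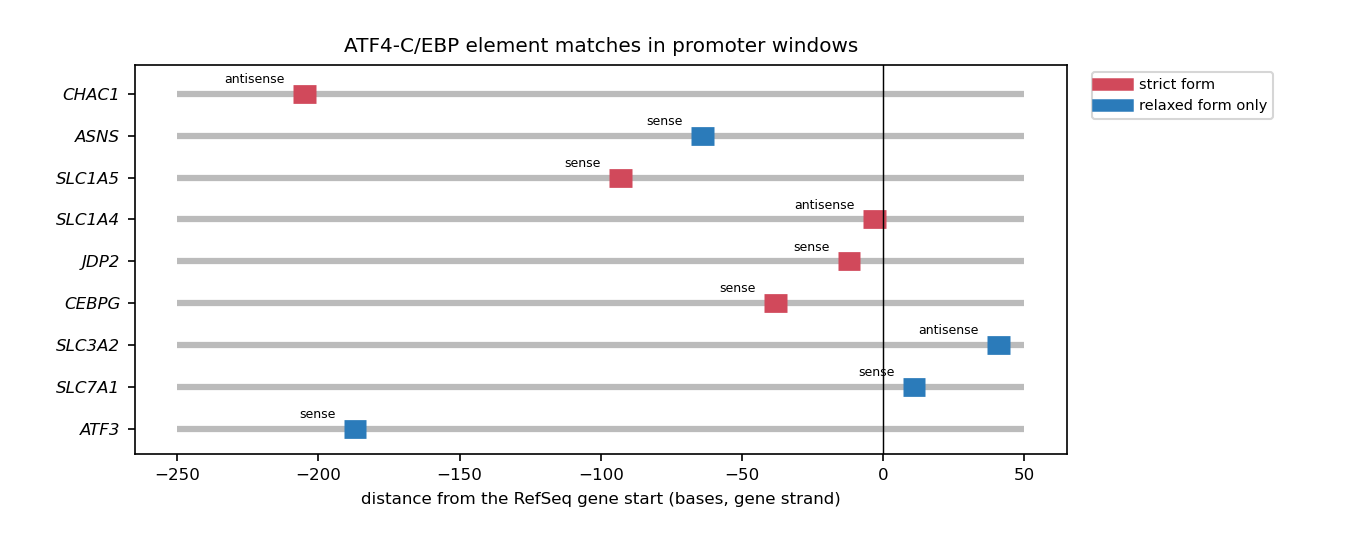
Position of the element (coloured boxes, centred on the match) in the promoter windows of the 9 genes that hold it, with distance in bases from the RefSeq gene start on the x axis and grey bars for the 300-base windows. Red boxes are TGATGCAA, found in 5 of the 9 genes, blue boxes are other forms of TGATGNAA, and sense or antisense gives the strand.

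Most of the 40 genes were higher with shRNA 2, and fewer were higher with shRNA 1. With shRNA 1, 8 of 40 were at least 2-fold higher than in the control and 2 at least 2-fold lower, where 7.92% of all genes tested were higher and 7.38% lower by that size. With shRNA 2, 32 of 40 were at least 2-fold higher and 0 lower, where 13.0% of all genes were higher and 8.76% lower. The 32 include NUPR1, which passed the filter through shRNA 2. The median log2 fold (1 means 2-fold) of the 40 genes was 0.45 with shRNA 1 and 1.80 with shRNA 2, against 0.01 and 0.04 for all genes tested. Both hairpins gave at least 2-fold higher levels of 7 genes (ASNS, PSAT1, CHAC1, CTH, JDP2, SLC7A11 and SLC1A5) and lower levels of 0, where 5.29% of all genes were higher and 4.50% lower with both. Both folds share the single control library. The 40 genes together took 0.587% of all counts with shRNA 1, 1.46% with shRNA 2 and 0.433% in the control. In bulk RNA, a change in the number of cells that make a transcript and a change in the RNA per cell cannot be told apart.

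**Figure D2:**
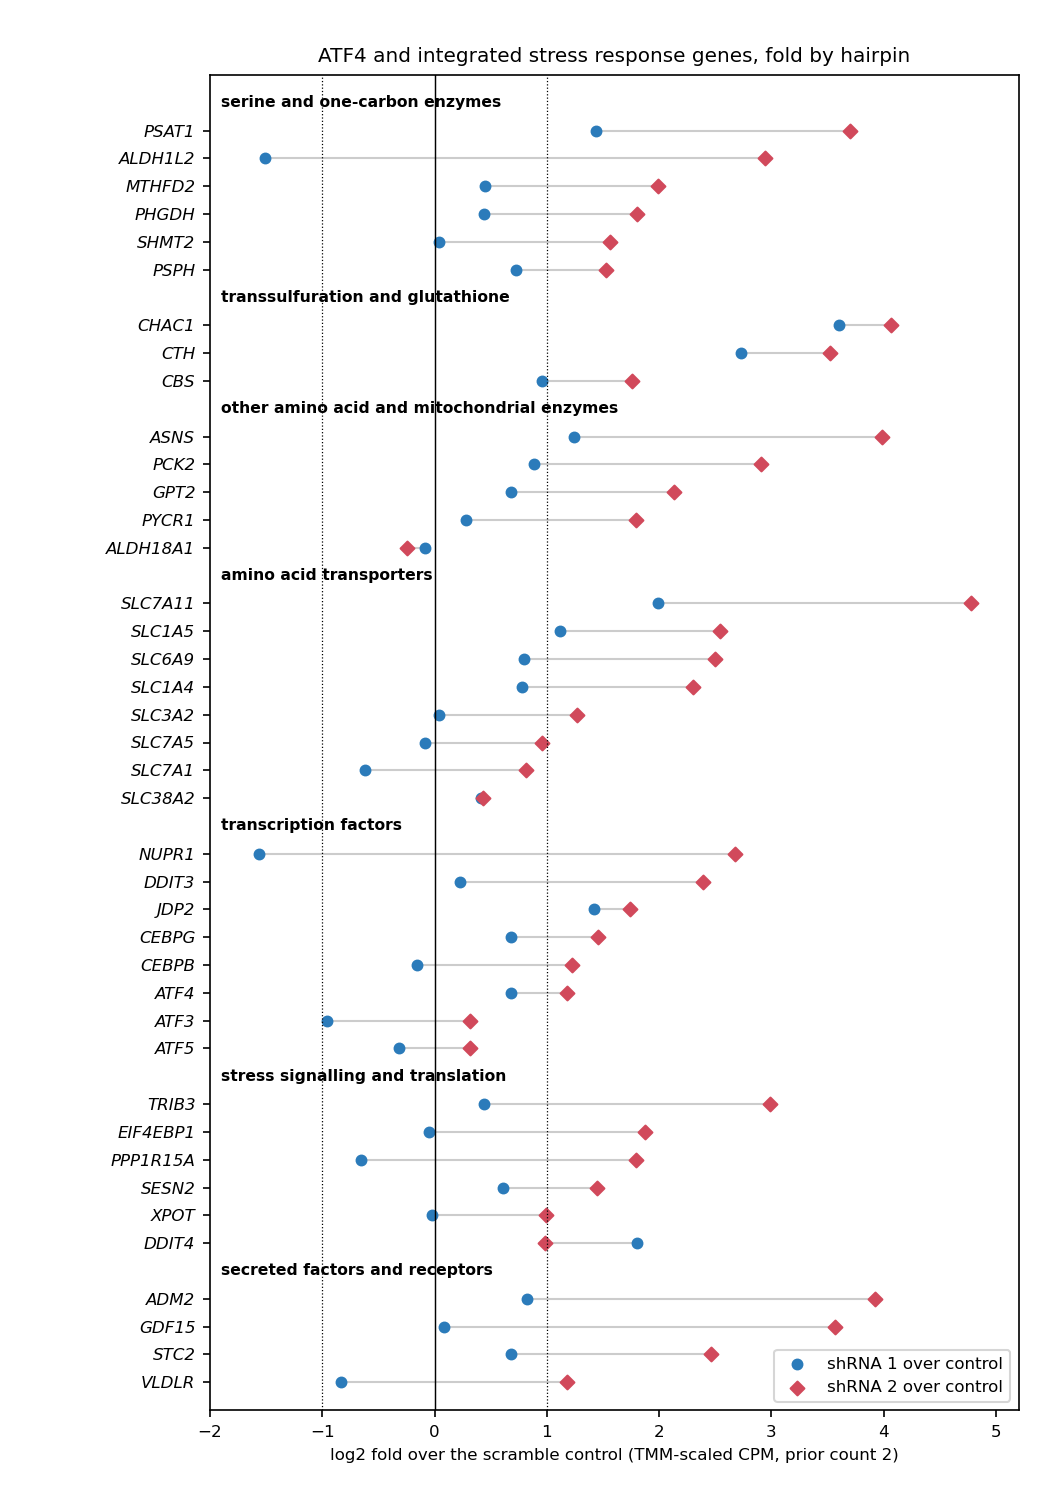
Log2 fold over the control of each of the 40 genes by group, with circles for shRNA 1, diamonds for shRNA 2 and dotted lines at 2-fold. Diamonds lie right of the upper dotted line for 32 genes and circles for 8.

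In the group test of both hairpin libraries against the control, no member passed. There edgeR's quasi-likelihood test called 6 of all 15132 genes at an adjusted p below 0.05 (0.0397%), none of them a member, and member adjusted p values ran from 0.0770 (CHAC1) to 0.990 (ATF5). At an unadjusted p below 0.05 it gave 11 of the 40, all higher, where 5.18% of all genes were higher at that level. These 11 were CHAC1, CTH, JDP2, SLC7A11, CBS, DDIT4, SLC1A5, PSAT1, ASNS, PSPH and CEBPG. DESeq2 called 7 members, all higher (CHAC1, CTH, PSAT1, ADM2, SLC1A5, PCK2 and JDP2), where it called 3.65% of all genes in either direction, and limma called 0, with 7 of 40 members at an unadjusted p below 0.05, where 9.41% of all genes were at that level in either direction. The edgeR test has 1 residual degree of freedom, which is the spread between the hairpin libraries.

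The serine and one-carbon enzymes were higher with shRNA 2 in 6 of 6 cases and with shRNA 1 in 1 of 6, by at least 2-fold. Of all genes tested, 13.0% were higher by that size with shRNA 2 and 7.92% with shRNA 1. In this and the following groups, a count of 1 gene with shRNA 1 is not read as a result about the group. PSAT1, the aminotransferase of serine synthesis (chromosome 9, 78297143 to 78330093), had 3278 counts with shRNA 1, 15123 with shRNA 2 and 1021 in the control. Both hairpin libraries stood above the control, at 2.71-fold (2.53 to 2.91) with shRNA 1 and 13.0-fold (12.2 to 13.9) with shRNA 2. The log2 folds of PSAT1 averaged 2.57 ± 1.60 (SD, n = 2), with an adjusted p of 0.414 in edgeR. PHGDH, which makes the first committed step of serine synthesis, had 3347, 8286 and 2087 counts in the same order, and PSPH, which makes the last, had 788, 1321 and 403. Their folds were 1.36 and 1.65 with shRNA 1, and 3.49 and 2.88 with shRNA 2. SHMT2, the mitochondrial enzyme that splits serine into glycine and a one-carbon unit, had 1705, 4707 and 1401 counts, so that it was close to the control with shRNA 1 (1.03-fold, 0.958 to 1.10) and 2.95-fold higher with shRNA 2 (2.78 to 3.14). MTHFD2, which oxidises that unit in mitochondria, was 1.37-fold and 3.97-fold of the control.

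ALDH1L2 lay on opposite sides of the control in the hairpin libraries. This mitochondrial formyltetrahydrofolate dehydrogenase (chromosome 12, 105019784 to 105084577) had 56 counts with shRNA 1, 1219 with shRNA 2 and 138 in the control. It was 0.343 of the control with shRNA 1 (0.247 to 0.471) and 7.77-fold with shRNA 2 (6.51 to 9.33). Its mean log2 fold of 0.72 ± 3.15 (SD, n = 2) was smaller than its spread.

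Transsulfuration and glutathione genes were the group with the highest folds with shRNA 1, with a median log2 fold of 2.73 there and 3.53 with shRNA 2. In this group 2 of 3 genes with shRNA 1 and 3 of 3 with shRNA 2 exceeded the control by at least 2-fold. The shares of all genes tested were 7.92% and 13.0%. CHAC1, which breaks down glutathione (chromosome 15, 40952962 to 40956519), had 497 counts with shRNA 1, 662 with shRNA 2 and 33 in the control. The hairpin libraries lay close together and far above the control, at 12.7-fold (8.94 to 18.7) and 17.6-fold (12.4 to 25.8). Its log2 folds averaged 3.83 ± 0.33 (SD, n = 2), with adjusted p values of 0.0770 in edgeR and 3.30e-08 in DESeq2, and 3.30e-08 to 0.747 over all settings. CTH, the enzyme that releases cysteine from cystathionine (chromosome 1, 70411218 to 70439851), had 1128, 1881 and 142 counts. It was 6.71-fold higher with shRNA 1 (5.63 to 8.05) and 11.6-fold higher with shRNA 2 (9.82 to 13.9), with a mean log2 fold of 3.13 ± 0.56 (SD, n = 2) and adjusted p values of 0.105 in edgeR and 3.99e-07 in DESeq2 (3.99e-07 to 0.747 over all settings). CBS, the enzyme that makes cystathionine, had 756, 1268 and 328 counts and folds of 1.95 (1.71 to 2.22) and 3.40 (3.01 to 3.85), just inside 2-fold with shRNA 1. CBS is uncertain, because its near-identical copy CBSL had 659, 1023 and 300 counts. Summed, both gave 1415, 2291 and 628 counts and folds of 1.90 and 3.21.

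Among the other amino acid and mitochondrial enzymes, 1 of 5 with shRNA 1 and 4 of 5 with shRNA 2 exceeded the control by at least 2-fold. The shares of all genes tested were 7.92% and 13.0%. ASNS, which makes asparagine (chromosome 7, 97852118 to 97872542), had 1353 counts with shRNA 1, 8662 with shRNA 2 and 481 in the control. Both hairpin libraries exceeded the control, at 2.38-fold (2.14 to 2.64) and 15.8-fold (14.4 to 17.4), and shRNA 2 was 6.66-fold of shRNA 1 (6.29 to 7.06). PCK2, the mitochondrial phosphoenolpyruvate carboxykinase, had 1492, 5812 and 681 counts, with folds of 1.85 and 7.51. GPT2, the mitochondrial alanine aminotransferase, was 1.60-fold and 4.39-fold of the control. PYCR1, which makes the last step of proline synthesis, was 1.21-fold and 3.48-fold of the control, whereas ALDH18A1, which makes the first, was 0.944-fold (0.883 to 1.01) and 0.844-fold (0.787 to 0.904), the lowest fold of the 40 genes with shRNA 2.

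Of the 8 amino acid transporters, 2 exceeded the control at least 2-fold with shRNA 1 and 5 did so with shRNA 2. Their median log2 folds were 0.60 and 1.78, and 7.92% and 13.0% of all genes tested exceeded the control by at least 2-fold. SLC7A11, the cystine-importing chain of the cystine/glutamate exchanger (chromosome 4, 138164097 to 138242349), had 425 counts with shRNA 1, 2836 with shRNA 2 and 89 in the control. At 4.04-fold (3.20 to 5.13) and 28.0-fold (22.7 to 35.0), it had the highest shRNA 2 fold of the 40 genes. The log2 folds of SLC7A11 averaged 3.39 ± 1.97 (SD, n = 2), with an adjusted p of 0.371 in edgeR. SLC1A5, a carrier of glutamine and other neutral amino acids (chromosome 19, 46774883 to 46788594), had 2177, 5638 and 849 counts and folds of 2.17 (2.00 to 2.35) and 5.84 (5.43 to 6.28). SLC1A4, a related carrier of alanine, serine and cysteine, and SLC6A9, a glycine transporter, were 1.72-fold and 1.74-fold with shRNA 1 and 4.93-fold and 5.65-fold with shRNA 2.

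SLC7A5, which imports leucine and other large amino acids, was the most abundant of the 40 genes on the FPKM scale, which divides by gene length, at 243 FPKM with shRNA 1, 526 with shRNA 2 and 235 in the control. Its fold was 0.940 with shRNA 1 and 1.95 with shRNA 2. SLC3A2, the heavy chain shared by SLC7A5 and SLC7A11, was 1.03-fold and 2.41-fold of the control. SLC7A1, a carrier of arginine and lysine, was 0.652-fold (0.625 to 0.681) with shRNA 1 and 1.76-fold (1.70 to 1.83) with shRNA 2. SLC38A2, a neutral amino acid carrier, had nearly equal folds of 1.33 and 1.34.

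**Figure D3:**
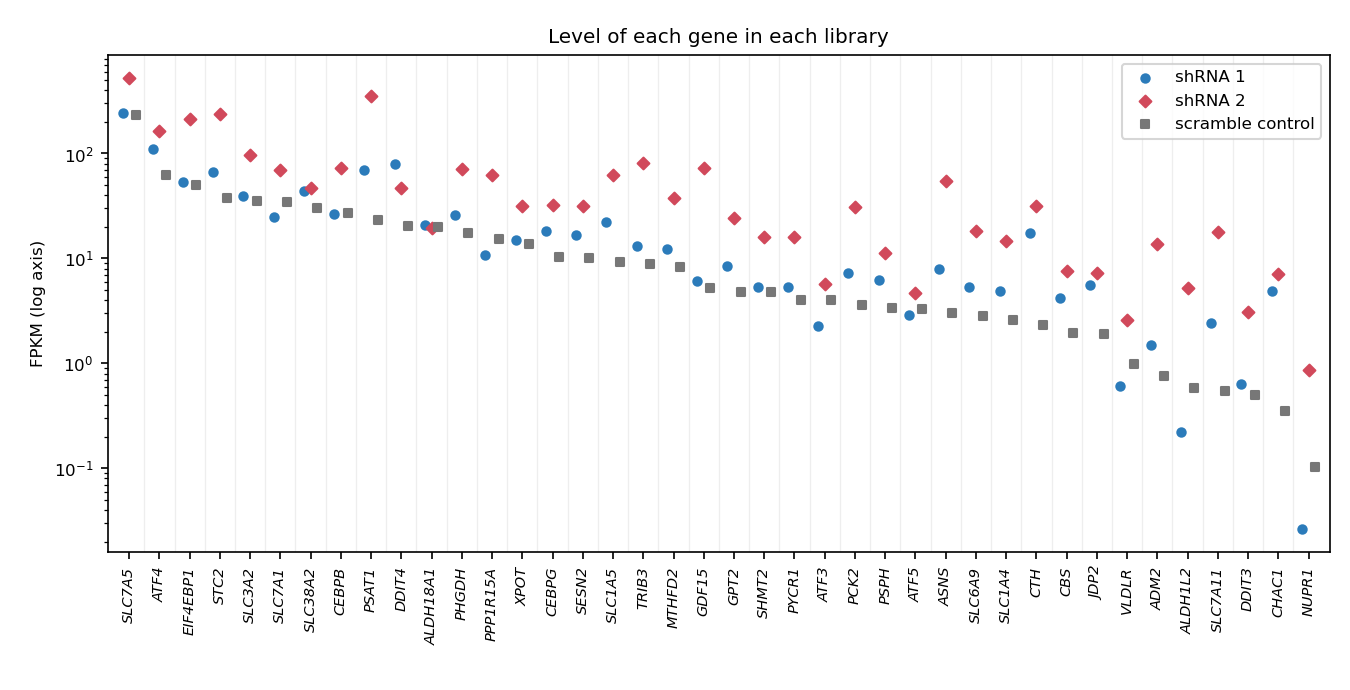
Level of each of the 40 genes in FPKM on a log axis, by library, ordered by the control level. The shRNA 2 library has the highest point for every gene except DDIT4 and ALDH18A1.

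Transcription factors had the lowest median log2 fold with shRNA 1, at 0.03, and 1.34 with shRNA 2. Of the 8, 1 was at least 2-fold higher and 1 lower with shRNA 1, and 6 were higher with shRNA 2. By that size, 7.92% of all genes tested were higher and 7.38% lower with shRNA 1, and 13.0% higher with shRNA 2. ATF4 itself (ENSG00000128272, chromosome 22, 39519695 to 39522685) had 8069 counts with shRNA 1, 10958 with shRNA 2 and 4264 in the control. Both hairpin libraries were above the control, at 1.60-fold (1.54 to 1.66) and 2.26-fold (2.18 to 2.34), with a mean log2 fold of 0.93 ± 0.35 (SD, n = 2) and an adjusted p of 0.556 in edgeR. JDP2, a bZIP repressor that can pair with ATF family members (chromosome 14, 75427716 to 75474111), had 1151, 1381 and 363 counts. It was 2.68-fold (2.38 to 3.02) and 3.35-fold (2.98 to 3.77) of the control, with a mean log2 fold of 1.58 ± 0.23 (SD, n = 2) and an adjusted p of 0.188 in edgeR. CEBPG, a partner of ATF4, was 1.61-fold and 2.74-fold, and CEBPB, another C/EBP protein, 0.899-fold and 2.34-fold.

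DDIT3, which encodes the proapoptotic factor CHOP, had 68 counts with shRNA 1, 300 with shRNA 2 and 49 in the control. It was within counting error of the control with shRNA 1 (1.17-fold, 0.800 to 1.73) and 5.38-fold higher with shRNA 2 (3.97 to 7.44). NUPR1, a small stress-induced chromatin protein, had 3, 91 and 11 counts, so that its ratio was 0.230 with shRNA 1 (0.0413 to 0.872) and 7.28 with shRNA 2 (3.88 to 15.1). NUPR1 passed the filter through shRNA 2, and its log2 folds, taken with a prior count of 2, were -1.56 and 2.68. ATF3, a stress-induced bZIP factor, was 0.514-fold (0.452 to 0.585) and 1.25-fold (1.13 to 1.38) of the control, just inside 2-fold with shRNA 1. ATF5, whose message is regulated in translation much like that of ATF4, was 0.802-fold and 1.25-fold.

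Of the 6 stress signalling and translation genes, 1 exceeded the control by at least 2-fold with shRNA 1 and 4 did with shRNA 2. The shares of all genes tested were 7.92% and 13.0%. TRIB3, a pseudokinase that binds ATF4 and dampens it, had 1049 counts with shRNA 1, 5905 with shRNA 2 and 652 in the control, with folds of 1.36 (1.23 to 1.50) and 7.96 (7.34 to 8.65). PPP1R15A (GADD34), which directs the phosphatase that restores eIF2, had 781, 4115 and 1042 counts. It was 0.633-fold with shRNA 1 (0.576 to 0.696) and 3.47-fold with shRNA 2 (3.24 to 3.72). DDIT4, an inhibitor of mTORC1, had 4204, 2296 and 1018 counts and folds of 3.49 (3.26 to 3.74) and 1.98 (1.84 to 2.14). It thus lay just inside 2-fold with shRNA 2, and just outside with a mean of at least 5 CPM (2.03-fold) or with library totals as the scaling (2.28-fold). SESN2, another inhibitor of mTORC1, was 1.52-fold and 2.73-fold of the control. EIF4EBP1, the repressor of cap-dependent translation, had 1014, 3701 and 889 counts and folds of 0.964 and 3.66, and XPOT, the tRNA exporter, had folds of 0.984 and 1.99.

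Genes for secreted factors and receptors were at least 2-fold higher with shRNA 2 in 4 of 4 cases and with shRNA 1 in 0 of 4. The shares of all genes tested were 13.0% with shRNA 2 and 7.92% with shRNA 1. GDF15, a stress hormone of the TGF-beta family, had 375 counts with shRNA 1, 4049 with shRNA 2 and 299 in the control, which is 1.06-fold (0.908 to 1.24) and 11.9-fold (10.6 to 13.4). ADM2, a peptide hormone of the adrenomedullin family, had 127, 1063 and 60 counts, with folds of 1.79 (1.31 to 2.47) and 15.6 (12.0 to 20.6). Both were thus far higher with shRNA 2 than in either other library. STC2, a secreted glycoprotein, had 8392, 27635 and 4413 counts and folds of 1.61 and 5.51. VLDLR, a lipoprotein receptor, was 0.555-fold with shRNA 1 (0.436 to 0.705) and 2.28-fold with shRNA 2 (1.91 to 2.72).

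A further comparison set the hairpin libraries against each other, without the control. With shRNA 2, 28 of 40 genes were at least 2-fold higher than with shRNA 1 and 0 lower, where 8.35% of all genes were higher and 4.48% lower. With a mean of at least 5 CPM, which leaves NUPR1 out, 27 of 39 genes were higher by that size. The median log2 ratio was 1.44 for the 40 genes and 0.00 for all genes tested. It was above 0 for 38 of the 40 genes and for 7609 of all 15132. NUPR1, which passed the filter through shRNA 2, had 91 counts with shRNA 2 and 3 with shRNA 1 (31.6-fold, 10.5 to 156). ALDH1L2 had 1219 and 56 counts (22.7-fold, 17.3 to 30.2). Taken with a prior count of 2, the log2 ratios were 4.24 for NUPR1 and 4.45 for ALDH1L2. The latter was the largest of the 40 genes on that scale. GDF15 followed at 11.2-fold, ADM2 at 8.71-fold, SLC7A11 at 6.95-fold, ASNS at 6.66-fold, TRIB3 at 5.86-fold, PPP1R15A at 5.48-fold, PSAT1 at 4.80-fold and DDIT3 at 4.59-fold. Among genes that both hairpins had at least 2-fold above the control, the smallest ratios were 1.39-fold for CHAC1 (1.23 to 1.56), 1.74-fold for CTH (1.61 to 1.87) and 1.25-fold for JDP2 (1.15 to 1.35). DDIT4 was lower with shRNA 2, at 0.568-fold (0.540 to 0.598). This comparison is of 1 library with 1 library, and the mitochondrial share of 2.51% with shRNA 2 and 4.58% with shRNA 1 differed in the same libraries.

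**Figure D4:**
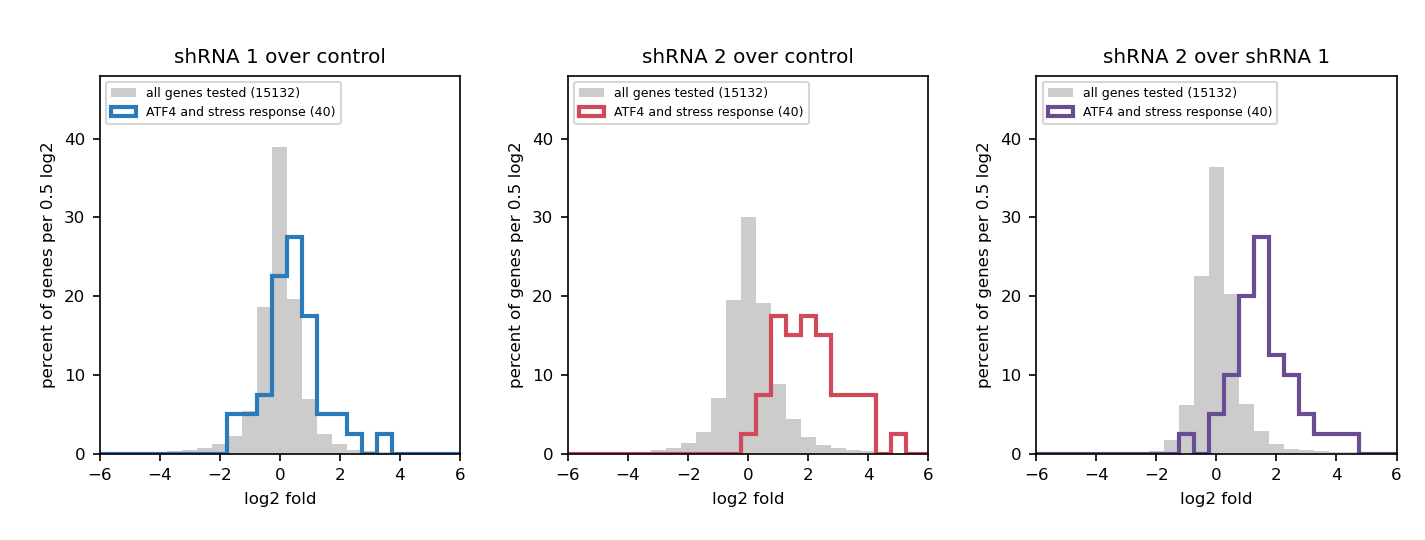
Distribution of log2 folds of the 40 genes (outlines) and of all 15132 genes tested (grey), in percent of genes per 0.5 log2, for shRNA 1 over control, shRNA 2 over control and shRNA 2 over shRNA 1. The outlines have medians of 0.45, 1.80 and 1.44 and the grey areas 0.01, 0.04 and 0.00.

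Folds were also read by the presence of the promoter element. The 9 genes that hold TGATGNAA had median log2 folds of 0.78 with shRNA 1 and 1.74 with shRNA 2, against 0.44 and 1.79 for the 23 with a window and no match. Among tested genes with a window, leaving out the members, 22 of 268 with the element (8.21%) were at least 2-fold higher with shRNA 1, against 721 of 10066 without it (7.16%). With shRNA 2 these were 49 of 268 (18.3%) and 1083 of 10066 (10.8%). The printed windows were picked for high folds, so the folds of those genes bear on nothing here. SLC7A1 and ATF3, which also hold the element, were below the control with shRNA 1.

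Other genes of the pathway were read from 7 lists (96 genes in the table, 91 tested), chosen with earlier results of these data known. Of the 91 genes, 8 were higher and 2 lower by at least 2-fold with shRNA 1, and 12 higher and 2 lower with shRNA 2, with median log2 folds of 0.03 and 0.21. These counts are near the shares of all genes given above (7.92% higher with shRNA 1 and 13.0% with shRNA 2). None passed edgeR's test. There 4 had an unadjusted p below 0.05, all higher, where 5.18% of all genes were higher at that level. DESeq2 called 1, where it called 3.65% of all genes in either direction. The eIF2 kinases and eIF2 factors (18 genes) had medians of 0.11 and −0.03. EIF2AK3 (PERK, the kinase of endoplasmic reticulum stress) had 348, 398 and 362 counts, EIF2AK4 (GCN2, of amino acid shortage) 1114, 994 and 939, and EIF2AK1 (HRI, of haem shortage) 4311, 3430 and 3167. All 3 lay within 2-fold of the control, whereas EIF2AK2 (PKR, of double-stranded RNA) had 4887, 9339 and 3490 counts and a log2 fold of 1.23 with shRNA 2.

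In the amino acid lists, ASS1, which makes argininosuccinate for arginine synthesis, had 9583 counts with shRNA 1, 23467 with shRNA 2 and 888 in the control (log2 folds 3.19 and 4.54). GLDC, the glycine decarboxylase, had 96, 150 and 18 counts (2.07 and 2.76), and SLC1A1, a glutamate and cysteine carrier, 118, 129 and 39 (1.31 and 1.50). The C/EBP genes CEBPA and CEBPD had 83, 150 and 21 and 90, 107 and 33 counts (1.66 and 2.55, 1.16 and 1.46). These are the 5 of the 91 that were above the control by at least 2-fold in both hairpin libraries, a count near the 5.29% of all genes. The other methionine, cysteine and glutathione enzymes (10 tested) had medians of 0.16 and 0.23, and 1 and 0 of them exceeded the control by at least 2-fold. The other one-carbon and glycine enzymes (12 tested) had medians of 0.30 and 0.26, with 1 and 2 genes at least 2-fold higher, and the other amino acid enzymes (13 tested) 0.33 and 0.14, also with 1 and 2. For the other transporters (14 tested) the medians were −0.48 and 0.12, with 2 higher for each hairpin and 2 and 1 lower by at least 2-fold. For the other bZIP and C/EBP factors (12 tested) they were 0.16 and 0.56, with 2 and 3 higher. Outside the transporters, 1 of the other amino acid enzymes was at least 2-fold lower, with shRNA 2. Of all genes tested, 7.92% with shRNA 1 and 13.0% with shRNA 2 were at least 2-fold higher, and 7.38% and 8.76% lower.

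Targets of the other unfolded-protein arms, IRE1 and ATF6 (12 genes), had median log2 folds of −0.28 with shRNA 1 and 0.29 with shRNA 2, with 0 and 2 of 12 at least 2-fold higher. The shares of all genes tested were 7.92% and 13.0%. HSPA5, the main chaperone of the endoplasmic reticulum, had 12472, 36004 and 13206 counts (log2 folds −0.33 and 1.26), and CALR, a calcium-binding chaperone, 12837, 16506 and 13532 (−0.32 and 0.10). All 12 were higher with shRNA 2 than with shRNA 1, 3 of them by at least 2-fold, with a median log2 ratio of 0.56. Of all 15132 genes tested, 7609 were higher in that comparison and 8.35% at least 2-fold higher, with a median of 0.00.

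**Figure D5:**
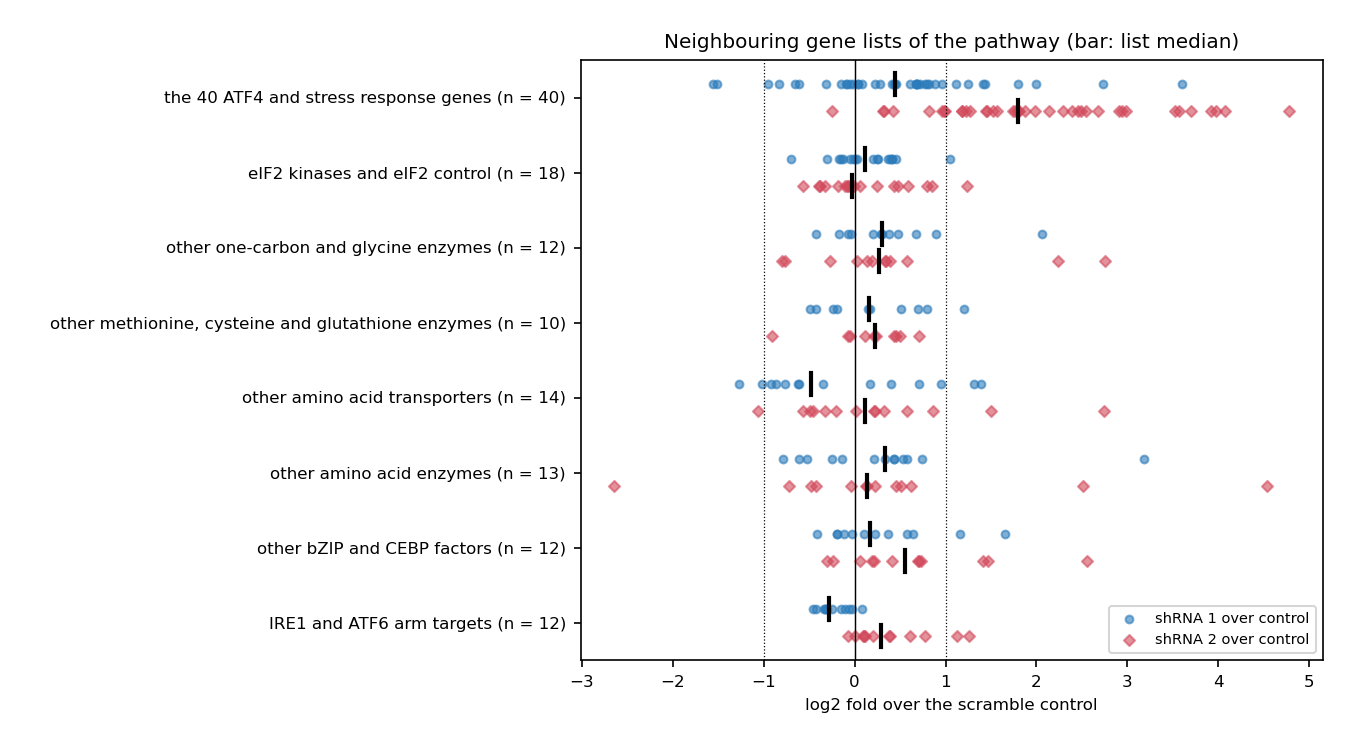
Log2 folds over the control of the 40 genes and of 7 lists of other pathway genes, with circles for shRNA 1, diamonds for shRNA 2, bars for the list medians and dotted lines at 2-fold. The 40 genes have medians of 0.45 and 1.80, and no other list has a median above 0.56 with either hairpin.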

How the data were processed

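Per the labels' protocols, polyA+ libraries were made with a TruSeq stranded mRNA kit from 3 lines. The authors deposited raw read counts and FPKM per gene, per the file headers. TopHat2 2.0.9 and the build hg38 come from the submitters' processing notes. The tool that counted reads, its strand option and the annotation release are not given in the sources used, so genes that overlap an antisense partner are uncertain. The row of 1 gene was broken over 4 lines and left out.

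Genes averaging 1 CPM or more were kept (15132), scaled with edgeR's TMM factors (1.02 for shRNA 1, 1.07 for shRNA 2 and 0.924 for the control), and log2 folds were taken with a prior count of 2. Calls, medians, means and SDs use these log2 folds. At these settings, folds of single genes not written as log2 are ratios of scaled counts with no prior count. The 2 scales differ most visibly at low counts, as for NUPR1. Intervals are exact conditional binomial intervals of those ratios at the 95% level. They cover counting error only, since reads carry no molecular identifiers. Both hairpin libraries were tested against the control by quasi-likelihood (edgeR 4.0.16, R 4.3.3), two-sided, with Benjamini-Hochberg adjustment over all genes tested, on the assumption that the lone control varies as the hairpin libraries do. DESeq2 1.42.0 and limma 3.58.1 were alternatives. Symbols that differ from a member's by P and a number, or by L, were searched as copies. Of 28 found, 26 had under 30 counts in every library, and the exceptions were CBSL and MTHFD2L, a separate gene. Full values are given for members at least 2-fold away with both hairpins in the same direction, for the 10 with the largest difference between hairpins and for those at least 2-fold lower with either, and the others more briefly. The members, lists and this rule were chosen with earlier results of these data known.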

Additional observations from a re-analysis of the deposited data

How the results depend on the processing

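The number of genes past the group test depended on the settings. It was 6 in edgeR as reported, 0 with no filter on low counts, 0 with a mean of at least 5 CPM, 0 with limma, 531 with DESeq2 and 158 with TMM factors computed from all genes, a setting chosen after seeing the data. Members past it numbered 0, but 7 with DESeq2 and 2 with TMM factors from all genes (CHAC1, adjusted p 0.0262, and CTH, adjusted p 0.0432). Members at least 2-fold lower with shRNA 1 numbered 2, but 1 with a mean of at least 5 CPM, where NUPR1 was left out. Leaving out 1 hairpin library returns the folds of the other hairpin given above. These are 8 to 32 members at least 2-fold higher, 0 to 2 lower, and median log2 folds of 0.45 to 1.80. No model was fitted again, and such a fit would have no residual degrees of freedom, so these are values with no test. Scaling by library totals moved the medians of all genes to 0.14 with shRNA 1 and 0.24 with shRNA 2, and those of the members to 0.58 and 2.00, and put ALDH18A1, SLC7A5, XPOT and EIF4EBP1 above 0 with shRNA 1. With library totals, CBS and PCK2 with shRNA 1, and DDIT4, SLC7A5, SLC7A1 and XPOT with shRNA 2, also moved past 2-fold, as did DDIT4 and XPOT with shRNA 2 at a mean of at least 5 CPM. No single fold of at least 2 of a gene given in full changed sign under the settings run. No paired analysis was possible because the control is a single library. With 1 library per hairpin, counting intervals do not show the spread between repeated cultures of a line.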

Other observations

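Some further genes of the pathway lists, chosen after their values were seen, are given here as values. PRODH, which breaks down proline, had 66 counts with shRNA 1, 256 with shRNA 2 and 38 in the control (log2 folds 0.53 and 2.51). SLC43A1, a carrier of large neutral amino acids, had 10, 187 and 23 counts (−1.27 and 2.74), with shRNA 2 above and shRNA 1 below the control, as for ALDH1L2 and NUPR1.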
